A study of Gallus gallus and Dromaius novaehollandiae with 14 samples.

Results

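The claw placode epidermis of the chicken embryo was set against the epidermis of the feather, scutate scale and reticulate scale placodes of the same species. Members were the 2 chicken claw libraries, compared with the 6 other chicken libraries, out of 14 libraries in the series. The remaining 6 libraries came from emu. In chicken, claw was sampled at Hamburger and Hamilton stage 36 (replicates 1 and 2). Feather came from stages 33 to 34, scutate scale from stage 37 and reticulate scale from stage 39 (replicates 1 and 2 each). In emu there was 1 claw library, with 2 of feather, 2 of scutate scale and 1 of reticulate scale, at those same stages. Chicken eggs were kept at 37.8 °C and emu eggs at 35.5 °C. In every group the dissected skin lay in dispase (10 mg/mL, 4 °C, 13 h), a protease that lets the epidermis be lifted from the dermis. The labels give no strain, sex or number of embryos per library. Each appendage was taken at a stage of its own in both birds, so appendage and stage cannot be told apart in either.

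Claws cover the tips of the digits with a hard curved plate made by the epidermis, and in birds this plate is rich in alpha keratins and in the corneous beta proteins of sauropsids. Feathers, scutate scales and reticulate scales arise from the same embryonic epidermis. Scutate scales are the overlapping plates of the shank and upper toes, and reticulate scales are the small bumps of the foot pad. Placodes, where they form, are thickenings of the epidermis that exchange signals of the WNT, FGF, BMP and Hedgehog families with the dermis beneath.

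The deposited table lists 8751 genes by Ensembl chicken ID and pairs none with a name. The reference table used here gave a symbol for 0 of these IDs. Markers of keratinocytes or of other cell types therefore could not be read, the tissue labels were not checked against them, and genes are described as groups, with 4 shown by ID. In bulk epidermis, fewer cells of a type and less RNA per cell cannot be told apart. Values are TPM (an abundance relative to the library total, corrected for transcript length) and keep no read number, so the depth behind them is unknown. They were rescaled among the 8 chicken libraries by median-ratio factors and analysed as log2(TPM + 1). The factors were 0.796 and 0.856 for claw and ranged between 1.01 and 1.14 for the other 6 libraries. A gene was tested if its TPM was 1 or more in at least 2 of the 8 libraries, which 7052 genes met.

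In chicken, claw libraries stood further in raw distance from those of the other appendages than these did from each other. The root mean square log2 difference over the tested genes was 0.955 to 1.16 in the 12 pairs of a claw library with any other library. Among feather, scutate scale and reticulate scale libraries of unlike appendage it was 0.564 to 0.888, also over 12 pairs. These ranges did not overlap; the pairs share libraries, and no test was made. Claw stood at 1.11 to 1.15 from feather, at 0.955 to 1.16 from scutate scale and at 0.969 to 1.09 from reticulate scale, and these ranges overlapped in part. The claw libraries were also far from each other, at 0.698, while replicates of feather, reticulate scale and scutate scale were 0.272, 0.386 and 0.428 apart. The 2 claw libraries thus differed from each other more than some pairs of unlike appendages did. Scatter between replicates adds to every distance, and most to the distances of claw. It was not taken off, so the gap between claw pairs and the other pairs includes it.

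**Figure D1:**
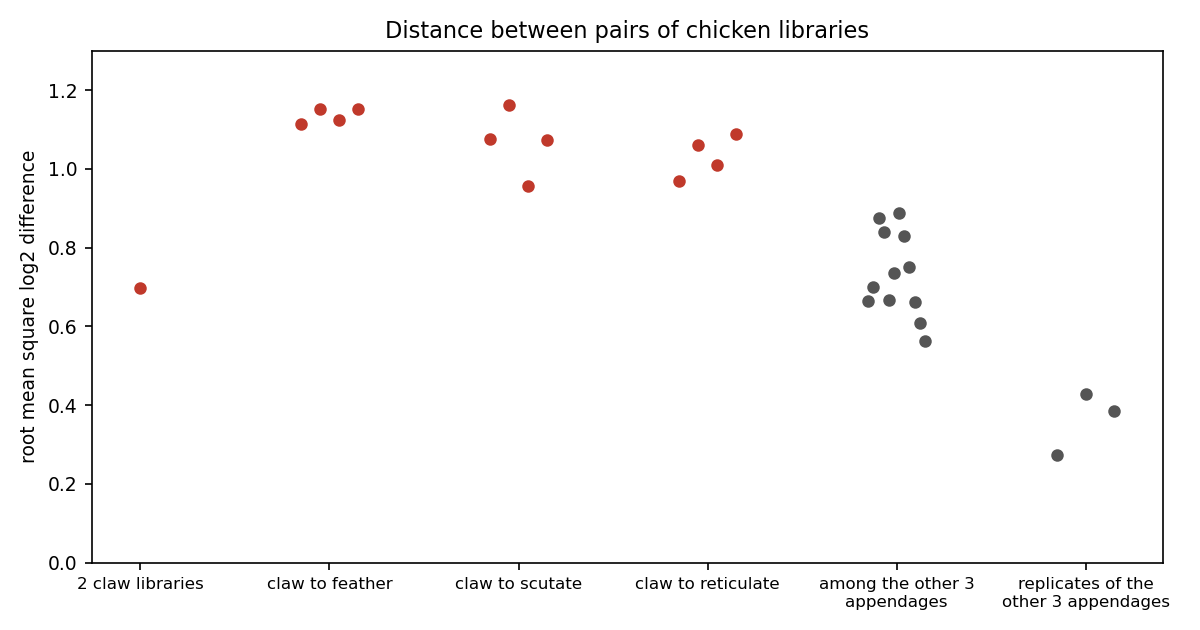
Root mean square log2 difference (vertical axis, log2 units) between pairs of chicken libraries over 7052 genes, 1 point per pair. Every pair of claw with another appendage lies at 0.955 or above, every pair among the other 3 appendages at 0.888 or below, and the 2 claw libraries lie 0.698 apart.

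The spread between the claw libraries bears on every claw value. Between replicates, the log2 difference had an SD over genes of 0.69 in claw, against 0.27 in feather, 0.39 in reticulate scale and 0.43 in scutate scale. The Pearson correlation across genes, which are not independent replicates, was 0.950 in claw and 0.980 to 0.991 in the other 3 appendages. A gap of at least 2-fold separated the claw libraries for 650 genes (9.22% of those tested), against 53 genes in feather, 179 in reticulate scale and 257 in scutate scale. In no pair of replicates did a gene have the same value above 0, and every library entered as its own sample.

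The disagreement between the claw libraries was lopsided. Replicate 2 was at least 2-fold higher for 540 genes and replicate 1 for 110. The median TPM of those 540 genes was 11.9 in claw replicate 2 and 2.35 in claw replicate 1, and the median of their means in the other 6 libraries was 5.23. For 185 of the 540, claw replicate 2 lay above all 6 other libraries and claw replicate 1 lay within their range. For 115, claw replicate 1 lay below all 6 and replicate 2 within their range. For 66, claw replicate 1 lay below and replicate 2 above all 6. Both claw libraries were above all 6 for 82 and below all 6 for 37. Over all tested genes replicate 2 was higher for 3571 and replicate 1 for 3458, a near-even split that the median-ratio rescaling largely sets. On the deposited scale replicate 2 was higher for 4202 genes and replicate 1 for 2827. Under quantile normalization replicate 1 was higher for 4084 genes and replicate 2 for 2928. The 2-fold gaps were not recounted under those scalings. The spread fell with expression: over quartiles of mean TPM, from lowest to highest, the SD between claw libraries was 0.89, 0.69, 0.57 and 0.48.

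Both claw values lay outside the range of the other 6 libraries for 3053 genes, which is 43.3% of the tested genes. In 1502 of them (21.3%) claw was above, and in 1551 (22.0%) it was below. These counts restate how the genes were chosen and carry no test. By the same rule, both values lay outside the rest for 22.9% of genes in feather, 21.5% in reticulate scale and 9.60% in scutate scale. For these appendages the rest includes the widely spread claw libraries, which widen the range to be cleared. The shares are therefore not like for like with that of claw. Many claw gaps were small. The distance from the nearer claw value to the nearest of the other 6 had a median of 0.28 log2 units for genes above and 0.29 for genes below. Just inside the rule, 317 genes above and 312 genes below had a gap under 0.1. Just outside it, 328 and 344 genes overlapped the others by less than 0.1. The 2 claw libraries lay on opposite sides of the other 6 for 261 genes (3.70% of those tested).

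A clear step of at least 2-fold between the nearer claw library and all 6 others was found for 318 of the 7052 tested genes (4.51%). Of these, 190 were higher and 128 lower in claw. Out of the same 7052 genes, this step was reached by 95 above and 45 below in feather, 41 and 17 in reticulate scale, and 10 and 9 in scutate scale. For these appendages the libraries to be cleared again include the widely spread claw libraries, so the counts are not like for like. Among the 190 genes with claw above, the median of the mean TPM was 29.7 in claw and 2.47 in the other 6 libraries. In 46 of the 190 the claw mean was 100 TPM or more. Among the 128 genes with claw below, that median was 3.07 TPM in claw and 26.5 TPM in the other 6. Claw replicate 2 was the higher claw library for 123 of the 190 genes (64.7%) and for 77 of the 128 (60.2%), against 50.6% of all tested genes. Over all genes that order changes with the scaling, and these counts were not repeated under other scalings.

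Switch-like genes formed a small part of this. In 62 genes both claw libraries had a TPM of 1 or more while all 6 others were under 1. They were chosen as higher in claw and so had to differ. The filter used TPM before rescaling, and how many of these genes passed it through claw alone was not counted. In 16 of them both claw values reached 5 TPM, and in 8 they reached 10 TPM. Feather gave 62, 4 and 2 such genes at these levels, reticulate scale 14, 2 and 0, and scutate scale 4, 1 and 0. In the other direction, both claw libraries were under 1 TPM for 53 genes that had 1 TPM or more in all 6 others, and for 10 of these the others all had 5 TPM or more. In feather, 25 genes were low in this way, in scutate scale 26 and in reticulate scale 25. At the level of 5 TPM those counts were 3, 0 and 0. In the counts for feather and the scales, the 6 others included both claw libraries.

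Claw was then tested against the mean of feather, scutate scale and reticulate scale. The test was limma's moderated test over the 4 group means of the 8 chicken libraries, with a weight that gave claw a spread of its own. The residual variance of the claw libraries was estimated as 4.03 times that of the others. At a Benjamini-Hochberg adjusted p under 0.05, 1605 of 7052 genes differed (22.8%), 835 higher (11.8%) and 770 lower (10.9%) in claw. Of the 7052 genes, 135 (1.91%) passed the filter only through the claw libraries, so their direction was largely fixed by the filter. Of these 135, 79 were among the 835 called higher. With a filter of 5 TPM in at least 2 libraries, 6205 genes were tested, and 777 were called higher and 794 lower. That filter could also be met through the claw libraries alone. Over the 7052 genes the log2 difference had a median of -0.01. Both claw values lay outside the other 6 for 802 of the 835 and 728 of the 770. The range rule and the test use the same 8 libraries, so this overlap is largely built in. Of the 3053 genes chosen by range alone, 1530 passed the test. Those that passed had a median absolute log2 difference of 1.05, and the 1523 that did not pass had 0.49.

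The direction of the calls depended on the scaling. On the TPM scale as deposited, 2588 genes were called, 466 higher and 2122 lower in claw, and the median of all genes then stood at -0.35. With quantile normalization the calls numbered 1404, 666 higher and 738 lower. Statements about direction here are therefore relative to the median gene of each library.

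The number of calls also depended on having both claw libraries. Without claw replicate 1 the count was 445 (299 higher, 146 lower), and without claw replicate 2 it was 265 (132 higher, 133 lower). In those fits the remaining claw library was assumed to vary as the pair did. A single claw library also gives larger standard errors, so the lower counts do not by themselves show that the claw libraries disagreed. With equal weights for all libraries, which takes claw to vary like the rest, 3160 genes were called. A set of 177 genes (11.03% of the calls) was called in the same direction with either claw library alone, 101 higher and 76 lower. Their median absolute log2 differences were 2.56 for those higher and 2.02 for those lower. Passing with a single claw library takes a large difference, so these sizes follow largely from the choice. All counts of genes in this paragraph are out of the same 7052 tested genes.

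**Figure D2:**
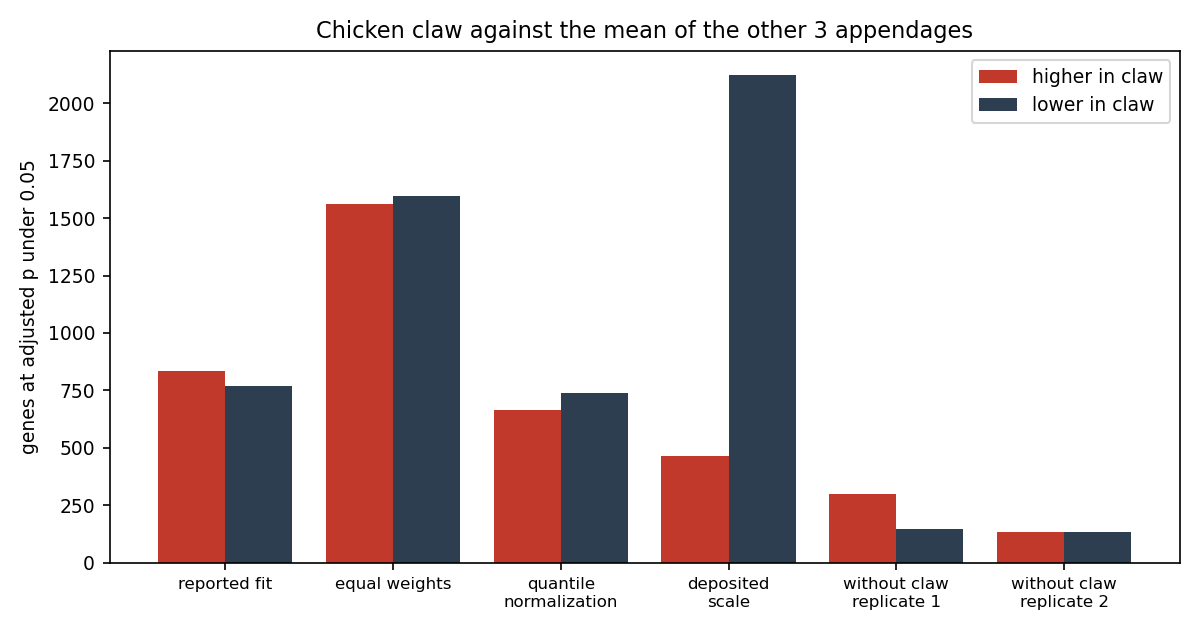
Number of genes (vertical axis) called higher and lower in chicken claw against the mean of the other 3 appendages, at an adjusted p under 0.05, in the reported fit and under 5 other settings. The reported fit gives 835 higher and 770 lower, the deposited scale gives 466 and 2122, and leaving out claw replicate 2 gives 132 and 133.

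The median change of the called genes was about 2-fold, and sizes varied widely. The lower and upper quartiles of the absolute log2 difference were 0.72 and 1.75 for genes higher in claw. For genes lower in claw they were 0.77 and 1.56. The median log2 difference was 1.07 for the 835 genes higher in claw, with 457 at 1 or more, 166 at 2 or more and 71 at 3 or more. For the 770 genes lower in claw the median absolute difference was 1.04, with 412, 112 and 35 genes at these sizes. The 835 include 79 genes that passed the filter only through the claw libraries. Those were not set apart here, so the sizes of the higher and lower sets are not like for like. The median standard error of the log2 difference was 0.21 in both sets. Another 329 genes had a mean difference of at least 2-fold and did not pass. Their claw libraries differed by a median of 0.71 log2 units, against 0.38 among the 869 genes that were at least 2-fold apart and passed. The gap between the claw libraries enters the residual variance of the test, so this contrast is largely built in.

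The claw libraries were at least 2-fold apart for 79 of the 835 genes higher in claw (9.46%) and 54 of the 770 lower (7.01%), against 9.22% of all tested genes. Claw replicate 2 was the higher of the pair for 494 of the 835 genes (59.2%) and for 437 of the 770 (56.8%), against 50.6% of all tested genes. Which claw library is higher for most genes changes with the scaling. These counts were not repeated under other scalings, so no position of replicate 2 is read from them. Of the 540 genes at least 2-fold higher in claw replicate 2, 64 were called higher (11.9%) and 42 lower (7.78%), against 11.8% and 10.9% of all tested genes. The gap between the claw libraries enters the residual variance of the test. Shares of 2-fold gaps among the calls, and of calls among the 540, are thus set in part by the test itself.

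**Figure D3:**
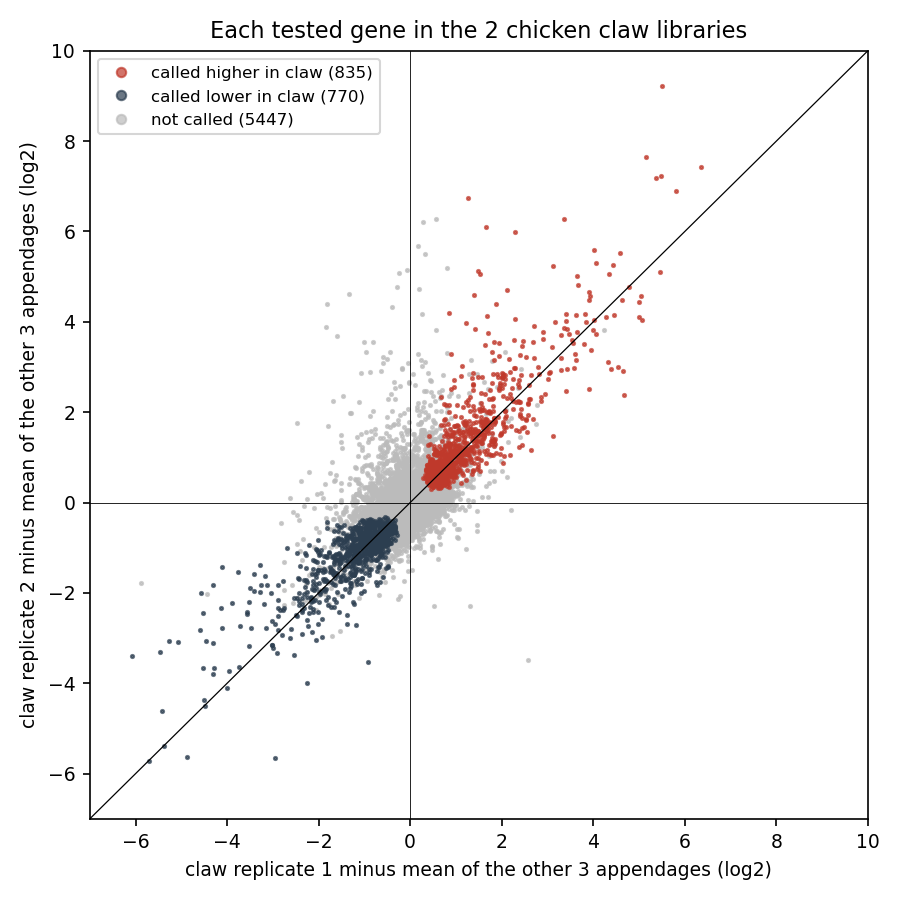
Each point is 1 of 7052 genes, placed by the log2 difference of claw replicate 1 (horizontal axis) and claw replicate 2 (vertical axis) from the mean of the other 3 chicken appendages; the diagonal marks equal values. The 835 genes called higher and the 770 called lower have both claw libraries on the same side of 0, and points at least 2-fold off the diagonal are mainly on the side of replicate 2 (540 genes, against 110 on the side of replicate 1).

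A rule took 4 genes, the 2 highest and the 2 lowest log2 differences among called genes with both claw values outside the others. For all 4, an adjusted p under 0.05 and claw values clear of the other 6 were therefore fixed by the choice. Their large differences follow from it too. Reads that near-identical copies may share with them could not be examined. ENSGALG00000008834 had 92.8 TPM in claw replicate 1 and 1222 TPM in claw replicate 2. It had 0.25 and 0.21 TPM in feather, 0.51 and 1.42 TPM in scutate scale, and 7.03 and 0.74 TPM in reticulate scale. Both claw values exceeded all 6 others, but they were themselves 13.2-fold apart. The claw estimate was 7.36 log2 units higher (SE 1.18, limma adjusted p = 0.00778), and without claw replicate 2 it was 5.51 and did not pass (limma adjusted p = 0.0858).

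ENSGALG00000005655 had 541 and 1133 TPM in the claw libraries. Its values were 1.47 and 1.93 TPM in feather, 2.88 and 14.96 TPM in scutate scale, and 19.0 and 8.40 TPM in reticulate scale. The lower claw value was far above the highest of the other 6, and feather was the lowest appendage. Claw was higher by 6.89 log2 units (SE 0.95, limma adjusted p = 0.00530). Without claw replicate 2 it was 6.35, with a limma adjusted p of 0.0677.

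ENSGALG00000013663 was listed at 0 in both claw libraries. It had 63.8 and 68.5 TPM in feather, 68.7 and 28.9 TPM in scutate scale, and 32.9 and 65.1 TPM in reticulate scale. The groups did not overlap, and no fold is given against a group listed at 0 (limma adjusted p = 0.00290). ENSGALG00000010898 had 0.042 and 0.036 TPM in claw, against 30.4 and 26.9 TPM in feather, 52.8 and 35.1 TPM in scutate scale, and 56.0 and 65.8 TPM in reticulate scale. Its claw libraries were close to each other and near 0, and all 6 others were well above. On the log2 scale claw differed by -5.38 (SE 0.29, limma adjusted p = 0.000572), a size that the pseudocount of 1 limits. Both of these genes also passed with either claw library alone.

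**Figure D4:**
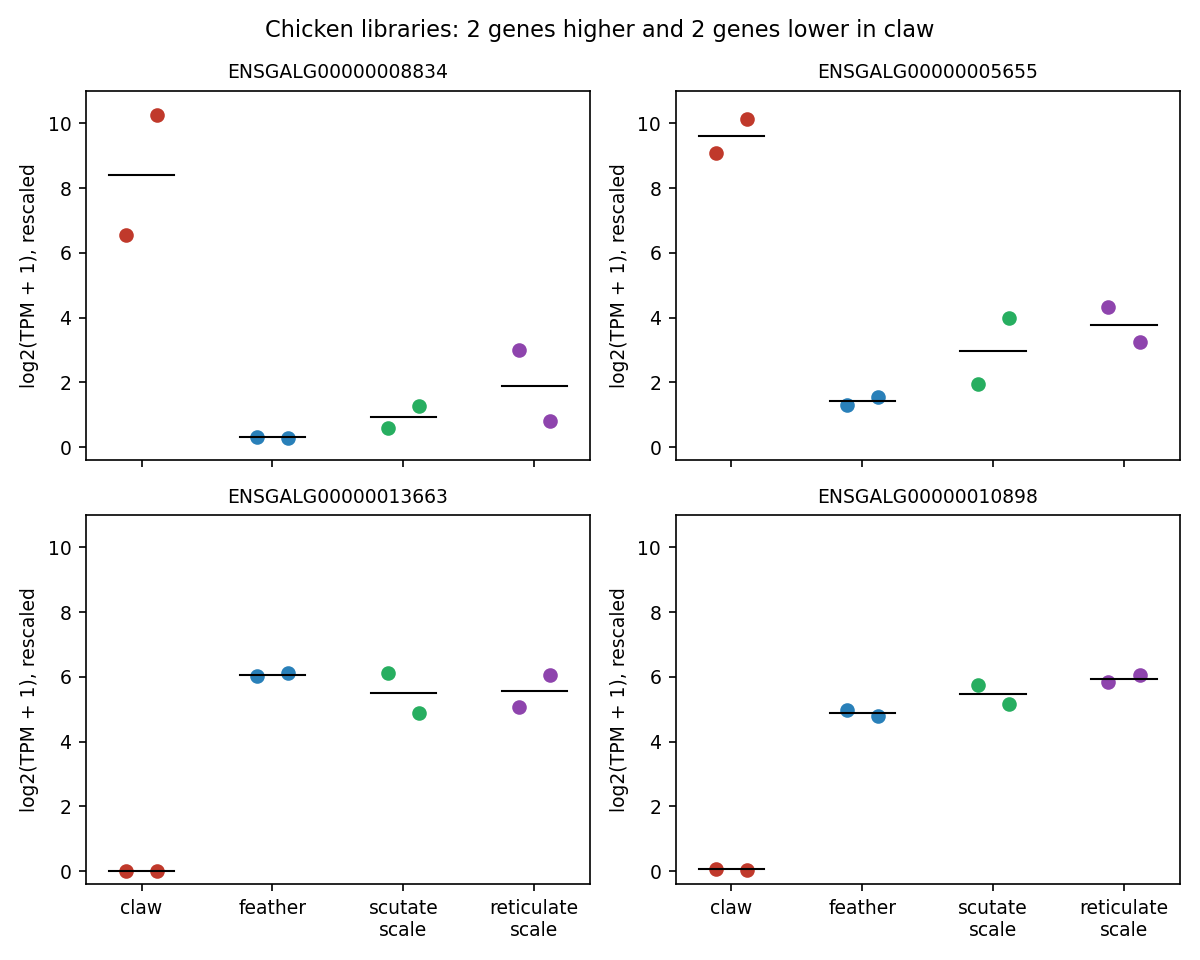
Rescaled log2(TPM + 1) (vertical axis) of the 4 genes in the 8 chicken libraries by appendage; points are libraries and bars the mean of each pair. The claw points of ENSGALG00000008834 and ENSGALG00000005655 lie above all others, at 92.8 and 1222 TPM and at 541 and 1133 TPM, and those of ENSGALG00000013663 and ENSGALG00000010898 lie at or near 0.

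Set against each appendage in turn, claw gave similar numbers of calls by the same limma fit. Claw differed from feather in 1670 genes (23.7%), 847 higher and 823 lower in claw. It differed from scutate scale in 1637 genes (23.2%), 852 higher and 785 lower. Against reticulate scale the count was 1702 (24.1%), with 908 higher and 794 lower in claw. The median absolute log2 difference of the genes higher in claw was 1.28 against feather, 1.19 against scutate scale and 1.01 against reticulate scale. For the genes lower in claw it was 1.25, 1.07 and 1.10. These comparisons share the claw libraries and are not independent.

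In all, 2663 genes were called against at least 1 appendage. Of these, 1129 were called against 1 appendage, 722 against 2 and 812 against 3. Calls against a single appendage numbered 469 for feather, 463 for reticulate scale and 197 for scutate scale. In 806 genes (11.4% of those tested) claw differed from all 3 appendages in the same direction, 442 higher (6.27%) and 364 lower (5.16%). Of the 190 genes with a 2-fold step above the others, 178 belonged to these 806, as did 111 of the 128 with a step below. The steps and the calls come from the same 8 libraries, so this overlap follows largely from the choice. Claw fell between appendages, called higher than one and lower than another, in 20 genes. Among these, 10 were lower in claw than in feather and higher than in reticulate scale, and 7 were higher than in feather and lower than in reticulate scale.

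For the 835 genes higher in claw, the next highest of the other 3 group means was feather in 352, reticulate scale in 339 and scutate scale in 144. Over all tested genes the highest of the 3 was feather in 38.5%, reticulate scale in 36.6% and scutate scale in 24.9%, against 42.2%, 40.6% and 17.2% of the 835. For the 770 genes lower in claw, the nearest was feather in 350 (45.5%), reticulate scale in 297 (38.6%) and scutate scale in 123 (15.97%). Over all tested genes the lowest of the 3 was feather in 39.1%, reticulate scale in 38.7% and scutate scale in 22.2%. The other 3 means lay within 0.5 log2 units of each other for 449 of the 835 genes and 413 of the 770 (53.8% and 53.6%), against 59.4% of all tested genes.

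Calls were spread over the range of expression. Over quartiles of mean TPM in the 8 libraries, bounded at 9.12, 23.8 and 53.8 TPM, 19.3%, 20.7%, 22.2% and 28.8% of the genes were called, from lowest to highest. The median absolute log2 difference of the calls fell over the same quartiles, at 1.62, 1.14, 0.88 and 0.83. In the lowest quartile 62.1% of calls were higher in claw, with 58.8% under quantile normalization and 38.1% on the deposited scale. In the highest quartile the share was 65.6%, with 43.3% and 20.4% under those scalings. The majority direction thus turned under quantile normalization in the highest quartile, and on the deposited scale, where 18.0% of all calls were higher, in both. In the middle quartiles, from lower to higher, 34.0% and 42.6% of calls were higher in claw. Under quantile normalization these shares were 45.8% and 42.5%, and on the deposited scale 11.6% and 8.94%. The mean TPM includes the claw libraries, so the quartile of a gene depends in part on its claw values. Genes that passed the filter only through claw were not set apart in any of these shares.

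The most abundant transcripts were largely shared. Of the 100 genes with the highest mean TPM in claw, 82 were among the 100 highest in feather, 86 in scutate scale and 85 in reticulate scale. Pairs of the other 3 appendages shared 87 to 93. In claw, 11 of the 100 were in none of the other 3 lists, while feather and reticulate scale had 6 such genes each and scutate scale had 1. The 11 had a median of 1058 TPM in claw and 276 TPM in the other 6 libraries, a contrast largely built into their choice. The 500 most abundant genes of a library took 66.7% and 64.6% of the listed TPM in claw, and 59.3% to 63.9% in the other 6 libraries. Both claw libraries were above the rest, by 4.63 percentage points on average. An exact permutation test over the 28 choices of 2 libraries gave a two-sided p of 0.0357, the smallest these choices allow. After adjustment over the 3 list sizes compared, that permutation p was 0.107. This test was not among those planned. It treats the other 6 libraries as exchangeable, although they are replicate pairs of 3 appendages, so its p-values do not allow for likeness within a pair. The 100 most abundant genes took 45.4% and 42.5% in claw, against 37.0% to 44.5%, so those ranges overlapped (exact permutation p = 0.107). For the 10 most abundant genes the shares were 10.2% and 9.62% in claw, and 8.87% to 11.4% in the others (exact permutation p = 0.821).

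The emu libraries took no part in choosing these genes. A single emu claw library was available, so its position has no replicate check and no test. Emu appendages were taken at the same stages as in chicken, so likeness between the birds cannot separate appendage from stage. Emu claw lay above all 5 other emu libraries for 453 of the 835 genes higher in chicken claw (54.3%), against 29.0% of all tested genes. It lay below all 5 for 101 of them (12.1%), against 26.8% of all tested genes. For the 770 genes lower in chicken claw, emu claw lay below all 5 for 363 (47.1%) and above for 117 (15.2%). The median log2 difference of emu claw from the mean of the other emu appendages was 0.33 for the genes higher and -0.25 for the genes lower in chicken claw, and 0 over all tested genes. An emu difference of at least 2-fold in the same direction was reached by 19.3% of the 835 and 14.7% of the 770. Over all tested genes those shares were 6.62% upward and 6.25% downward.

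The share of the listed TPM in these genes showed the same order in emu. The 835 genes took 18.7% and 21.2% of the listed TPM in the chicken claw libraries and 10.3% to 11.4% in the other 6, a gap that their choice fixes. In emu they took 17.6% in claw and 12.8% to 13.0% in the other 5 libraries. The 770 genes took 2.60% and 2.81% in chicken claw and 7.54% to 8.52% in the other 6. In emu they took 4.55% in claw and 5.95% to 6.49% in the other 5. The emu claw library was thus outside the range of the other emu libraries for both sets.

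**Figure D5:**
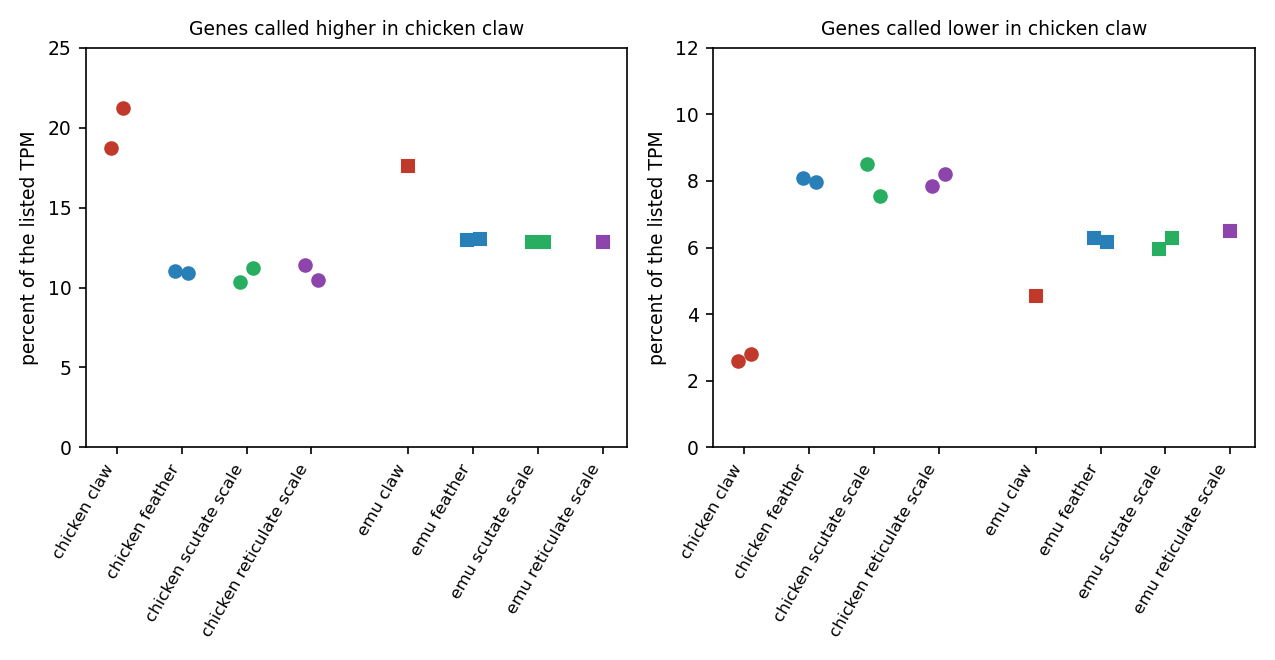
Percent of the listed TPM of each library (vertical axes, which differ in scale) taken by the 835 genes called higher (left) and the 770 called lower (right) in chicken claw; circles are chicken and squares emu libraries. Emu claw lies at 17.6% on the left, above 12.8% to 13.0% in the other emu libraries, and at 4.55% on the right, below 5.95% to 6.49%.

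Genes that differed between the chicken claw libraries were also placed in emu. Of the 540 genes at least 2-fold higher in claw replicate 2, emu claw was above the other 5 emu libraries for 173 (32.0%) and below for 149 (27.6%), against 29.0% and 26.8% of all tested genes. Emu claw differed from the mean of the other emu appendages by at least 2-fold upward for 18.7% of the 540 and downward for 16.1%. Over all tested genes those shares were 6.62% and 6.25%. The 540 were low in level, with a median TPM of 2.35 in chicken claw replicate 1 and 11.9 in replicate 2. The median of mean TPM over all tested genes was 23.8 in the chicken libraries. Genes of matched level were not compared for the 540, so whether their excess in both directions goes beyond that of other low genes was not tested. Of the 110 at least 2-fold higher in claw replicate 1, emu claw was above the others for 21 (19.1%) and below for 33 (30.0%), with 9.09% at least 2-fold up and 17.3% at least 2-fold down. For the genes called with either chicken claw library alone, emu claw was above for 62 of the 101 higher and below for 42 of the 76 lower. Of the 62 genes with expression in chicken claw and under 1 TPM in the other 6 libraries, 33 had 1 TPM or more in emu claw (53.2%, against 89.1% of all tested genes). The 62 were chosen as low in 6 chicken libraries, and genes of matched level were not compared. In 23 of the 62 (37.1%) emu claw was above the other 5 emu libraries, against 29.0% of all tested genes.

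The 4 genes shown above differed in emu. ENSGALG00000008834 had 28.4 TPM in emu claw, inside the 3.25 to 102 TPM of the other 5 emu libraries. ENSGALG00000005655 had 4.15 TPM in emu claw, inside their 0.28 to 6.03 TPM. ENSGALG00000013663 had 2.02 TPM in emu claw, under the 30.2 to 86.8 TPM of the others, and ENSGALG00000010898 was listed at 0 in emu claw, with 30.3 to 67.3 TPM in the others. Both genes lowest in chicken claw were thus lowest in emu claw too, while neither of the highest was highest in emu claw.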

How the data were processed

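RNA of 14 epidermis libraries was sequenced from strand-specific, polyA-selected libraries per the labels' protocols. TopHat2 2.0.6 and HTSeq 0.5.3p9 are named in the submitters' processing notes. Genome build, annotation and the assignment of emu reads to chicken IDs are not given in the sources used here. The authors deposited 1 table whose values were read as square roots of TPM, since squaring brings each emu column to a sum of 550000; chicken columns sum to between 500783 and 575133, lowest in claw. The planned tests assumed TPM, so values were squared. Groups come from sample titles, and all columns were matched.

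Chicken TPM were divided by median-ratio factors over the 8 chicken columns, and log2(TPM + 1) was fitted with limma 3.58.1 in R 4.3.3 (4 group means, arrayWeights with claw and the rest as variance groups, eBayes with trend, 4 residual degrees of freedom). Emu was rescaled on its 6 columns. Log2 differences understate changes of low genes. Genes named: the 2 highest and 2 lowest log2 differences among called genes with both claw values outside the others. Planned gene lists could not be matched to IDs. Members, rules and tests were chosen with earlier results of these data known. The code was tested on simulated data. Python 3.11.15, numpy 2.4.6, pandas 2.3.3 and matplotlib 3.10.9 were used.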

Additional observations from a re-analysis of the deposited data

How the results depend on the processing

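Counts below are genes called by limma in claw against the mean of the other 3 appendages, then against feather, scutate scale and reticulate scale, then against each of the 3 in 1 direction. With equal weights they were 3160, 2526, 2592, 2717 and 1390. On the deposited scale they were 2588, 2733, 2460, 2228 and 1369. Requiring a log2 difference of at least 1 gave 869, 1061, 978, 928 and 436. Leaving out 1 replicate at a time gave 265 to 1651, 491 to 1640, 261 to 1623, 289 to 1673 and 143 to 780, with the lowest value each time without claw replicate 2. Without a feather replicate, claw against feather gave 960 and 979, and the count against each of the 3 gave 513 and 530. Claw against reticulate scale gave 1098 without reticulate scale replicate 1. The number of genes with both claw values outside the rest was 3137 to 4464 in these fits, where a single remaining claw value sufficed without a claw library, and 597 above with 2875 below on the deposited scale. A pseudocount of 0.1 raised the SD between claw libraries to 0.919. Blocking on the replicate number, the 5 counts were 1623, 1565, 1587, 1605 and 747; same-numbered deviations correlated between -0.232 and 0.195, so the numbers were not taken to pair the libraries. The pseudocount of 0.1, both other filters on low values, quantile normalization, robust eBayes and the fit of all 14 libraries kept these 5 totals within 1.5 times the reported ones; by direction, the genes lower than in each of the 3 numbered 237 without a filter, against 364. Claw against the other 6 libraries as 1 group, run for the first count alone, gave 1417. Emu TPM as deposited, an alternative chosen after seeing the data, put emu claw above the rest for 381 of the 835 genes (45.6%, against 21.6% of all tested) and below for 423 of the 770 (54.9%, against 34.9%). The planned gene list alternatives were not run, since no ID had a symbol. Depth is unknown, so counting error could not be given.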
